A study of Mus musculus with 4 samples.

Results

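The amino acid transporter families described here are the solute carrier genes Slc1, Slc3, Slc7, Slc36, Slc38 and Slc43 and the amino acid members of Slc6, with 1 Slc38 gene left out by the rule. They were picked out by gene symbol, with earlier results of these data known. Of 48 such symbols in the RefSeq gene table, 46 had a probe set that carries a single gene symbol, out of 18193 genes on the array that did. Slc38a8 and Slc38a11 were not measured by such a probe set and are not analysed here. Each gene was read from its brightest probe set, and 34 of the 46 reached the level filter, a signal of 47.68, which is the 40th percentile of the mean log2 signals of all probe sets.

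The arrays came from immortalized mouse embryonic fibroblasts (MEFs) with both alleles of Paxip1, the gene of PTIP, flanked by loxP sites. PTIP -/- cells had been infected with a retrovirus carrying Cre recombinase and PTIP +/+ cells with the empty vector. Retroviral infection and floxed alleles are thus common to both genotypes, whereas Cre was given to the PTIP -/- cells alone. Effects of Cre itself therefore cannot be told apart from those of the loss of PTIP. The labels describe puromycin selection at 2.5 µg/ml, repeated once, for all cells in medium with 10% serum. Each genotype gave 2 RNAs, numbered 1 and 2, and the question was which genes depend on PTIP, a subunit of the MLL3/MLL4 histone methyltransferase complexes. The labels do not say whether the numbers stand for separate cultures, infections or clones, so every p-value measures only the spread between these RNAs, which may be technical, and 2 arrays per genotype limit the precision of each value. No source used here names the promoter of the Cre gene.

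Amino acids cross membranes on carriers with overlapping substrates. Slc1 proteins couple uptake of glutamate to sodium or exchange small neutral amino acids. Slc7 light chains pair with an Slc3 heavy chain and exchange large neutral or cationic amino acids and cystine. Slc38 proteins concentrate glutamine and other neutral amino acids with sodium, Slc36 proteins move small amino acids with protons, and members of both act at the lysosome, where amino acid supply is read by the mTORC1 kinase. Several Slc7, Slc3 and Slc1 genes are known targets of the transcription factor ATF4, which is made when amino acids run short.

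Paxip1 itself had signals of 43.5 and 74.6 on the PTIP -/- arrays against 1029.5 and 1040.1 on the controls, an 18.2-fold difference. The level filter left 34.1% to 40.6% of the probe sets of an array under it. The fibroblast identity of the cells was read from 11 measured markers, all above the filter, whose summed signal was 161690 and 203779 in PTIP -/- against 215693 and 218125 in PTIP +/+. Lower on average in PTIP -/- were 8 of these 11 (median log2 change -0.26), and the part of this shift in the transporter values was not tested. Summed signals of epithelial markers ran from 612 to 919 in PTIP -/- and 504 to 664 in PTIP +/+, of endothelial markers from 202 to 300 and 169 to 260, of blood cell markers from 250 to 259 and 232 to 236, of neural and glial markers from 368 to 398 and 263 to 325, and of fat cell markers from 23 to 31.9 and 19.3 to 24.9. All 3 measured fat cell markers, Adipoq, Cidec and Lep, lay below the filter on all arrays, as did Cdh1, Pecam1, Cd3e and Snap25. The filter was reached on average by 4 of 7 epithelial, 2 of 4 endothelial, 2 of 4 blood and 3 of 4 neural and glial markers. The brightest signals were 436 for Epcam, 172 for Kdr, 112 for Cd68 and 173 for Sox10. Lower on average in PTIP -/- were 1 of the epithelial markers and 0 of the others. Median log2 changes were 0.18, 0.21, 0.11 and 0.53 in that order, and their cause was not tested. Skeletal muscle markers summed to 414 and 9109 in PTIP -/- against 382 and 1971 in PTIP +/+. The high values came from the muscle actin Acta1 on the arrays numbered 2, and their part in the results was not tested. In cell populations such as these, fewer cells that make an RNA and less of it per cell cannot be told apart.

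The transporter genes did not move as one. Of the 34 tested, 15 had a lower mean log2 signal in PTIP -/- (44.1%, beside 43.9% of all 12509 genes tested) and 19 a higher one. With arrays centred on their medians the split was 20 lower and 14 higher. The median log2 change was 0.11 over the members and 0.05 over all genes tested. The members' median turned below 0 with centred arrays (-0.07), with quantile normalization (-0.01), with the filter at the 60th percentile (-0.02) and without PTIP +/+ replicate 1 (-0.02), and it was 0.27 without PTIP -/- replicate 2. The families lay on different sides. In Slc1, 5 of 6 tested members were lower (median -0.61) and in Slc7 6 of 9 (median -0.58), whereas 6 of 7 members of Slc38 (median 0.55) and all 4 of Slc36 (median 0.34) were higher. Slc6 had 3 of 4 higher (median 0.38), and Slc3 and Slc43 had 1 member on each side. With each array centred on its median, which moves the median of all genes to -0.13, the same counts were 5 of 6 lower in Slc1, 7 of 9 lower in Slc7, 5 of 7 higher in Slc38 and 2 of 4 higher in Slc36. With quantile normalization Slc36 was also split, 2 higher and 2 lower. Single arrays moved the family medians: that of Slc1 was -0.23 without PTIP -/- replicate 1 and 0.03 without PTIP +/+ replicate 2, and that of Slc6 was -0.20 and -0.17 without the same arrays. The median of Slc7 was -0.36 without PTIP -/- replicate 1 and -0.18 to -0.20 without each of the other arrays. With 1 array left out the median of Slc38 lay between 0.32 and 0.61, and that of Slc36 between 0.25 and 0.77. The median of Slc36 was 0.22 with quantile normalization and 0.16 with centred arrays. No member passed the test (limma, Benjamini-Hochberg adjusted p = 0.999 for each of the 34), and neither did any other gene, 0 of 12509 or 0% being called. At an unadjusted p under 0.05 there were 3 members, Slc1a2, Slc1a5 and Slc36a1, or 8.82% of those tested, beside 2.29% of all genes. Slc1a2 reached the filter only through the genotype in which it was high, and with low signals raised to the filter the members were 2, Slc1a5 and Slc36a1, beside 2.39% of all genes. Without a level filter there was 1 of 46, Slc1a2, beside 3.74% of all genes.

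**Figure D1:**
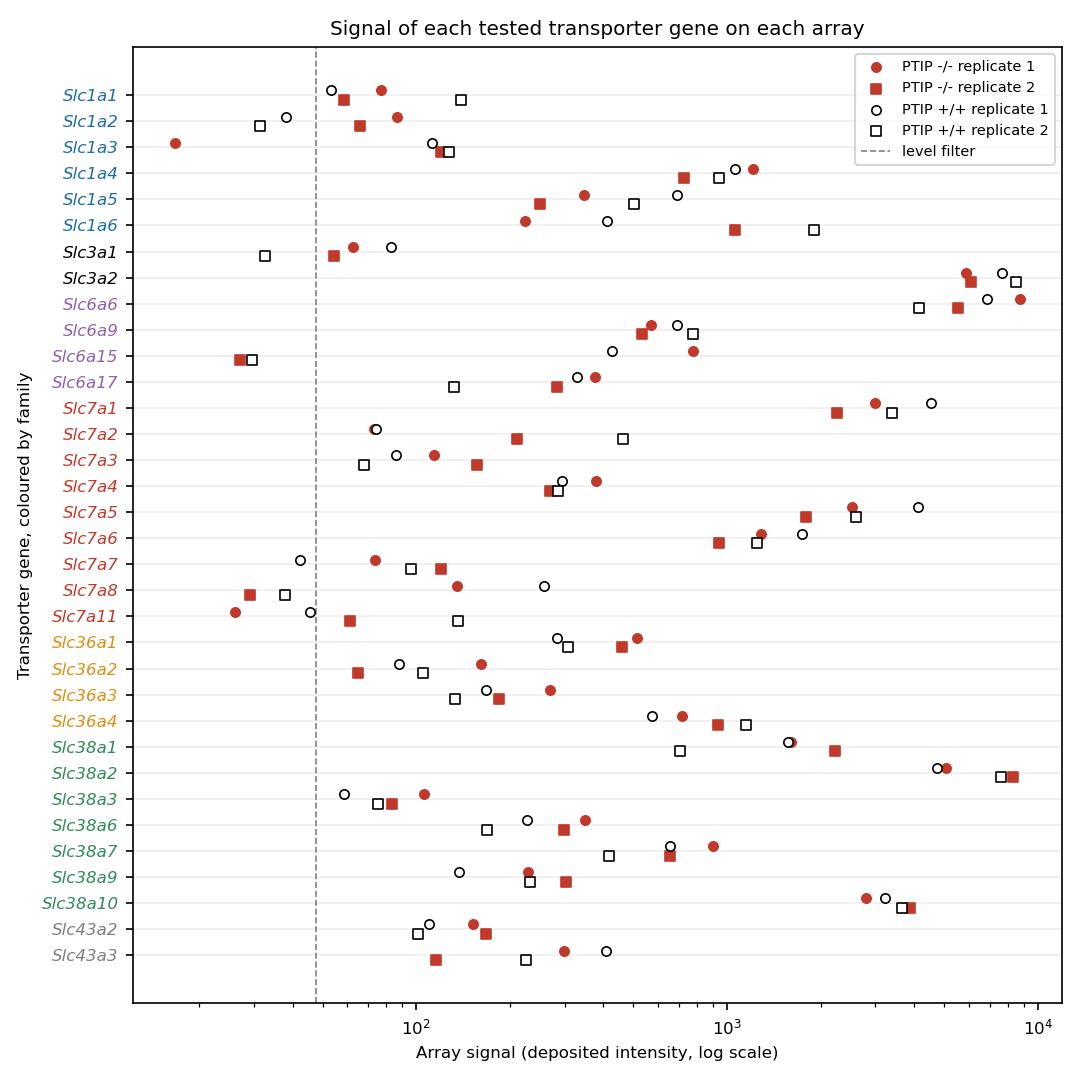
Deposited array signal, on a log axis, of the 34 tested transporter genes (rows, coloured by family) on each of the 4 arrays; filled red symbols are PTIP -/- and open symbols PTIP +/+, circles replicate 1 and squares replicate 2, and the dashed line is the level filter at 47.68. Signals are to be compared within a row, since different probe sets are not on a common scale; Slc1a5, for example, lies at 345.9 and 250.5 for PTIP -/- against 687.9 and 502.8 for PTIP +/+, and Slc6a15 separates by replicate number.

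Genotypes were compared within each replicate number, 1 array against 1 array, with signals below the filter raised to it first. At least 1.5-fold lower in PTIP -/- within both numbers were 3 of the 34 members, 8.82%, beside 1.95% of all genes tested: Slc1a5, Slc1a6 and Slc7a1. At least 1.5-fold higher within both was Slc38a6, 1 of 34 or 2.94%, beside 2.78% of all genes. Slc7a1, at 1.5-fold in its smaller comparison, was the member just inside the threshold on the lower side, with Slc7a5 just outside at 1.45-fold. On the higher side Slc38a6 lay just inside at 1.53-fold and Slc36a1 just outside at 1.49-fold. Both PTIP -/- arrays lay below both PTIP +/+ arrays for 5 members, 14.7%, beside 12.1% of all genes, these being Slc1a5, Slc3a2, Slc6a9, Slc7a1 and Slc7a5. Both lay above for 8 members, 23.5%, beside 16.6% of all genes. These were Slc1a2, which passed the filter only through the PTIP -/- arrays, Slc7a3, Slc36a1, Slc36a3, Slc38a1, Slc38a3, Slc38a6 and Slc43a2. These shares depended on the scaling: with centred arrays 7 members lay below, beside 22.5% of all genes, and 8 above, beside 7.43%. The uncentred share in the lower direction is near that of all genes. At least 2-fold within both numbers were 0 members in either direction, beside 0.719% of all genes lower and 0.456% higher. With no fold required, 12 members were lower within both numbers (35.3%, beside 25.8%) and 14 higher (41.2%, beside 33.9%). In number 1 alone 6 members were at least 1.5-fold lower (17.6%, beside 5.49%) and 9 higher (26.5%, beside 9.93%), and in number 2 alone 8 lower (23.5%, beside 10.4%) and 6 higher (17.6%, beside 15%). Slc1a2 is among the 14 and the 9. Slc1a3 is among the 12 and the 6 lower, and Slc7a11 among the 12 and the 8. The mean signals of Slc1a3 and Slc7a11 in PTIP -/- were below the filter, which they passed through PTIP +/+. With arrays centred on their medians 6 members were at least 1.5-fold lower within both numbers, Slc3a2, Slc7a5 and Slc43a3 joining the 3 above, beside 4.02% of all genes, and 0 were higher.

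**Figure D2:**
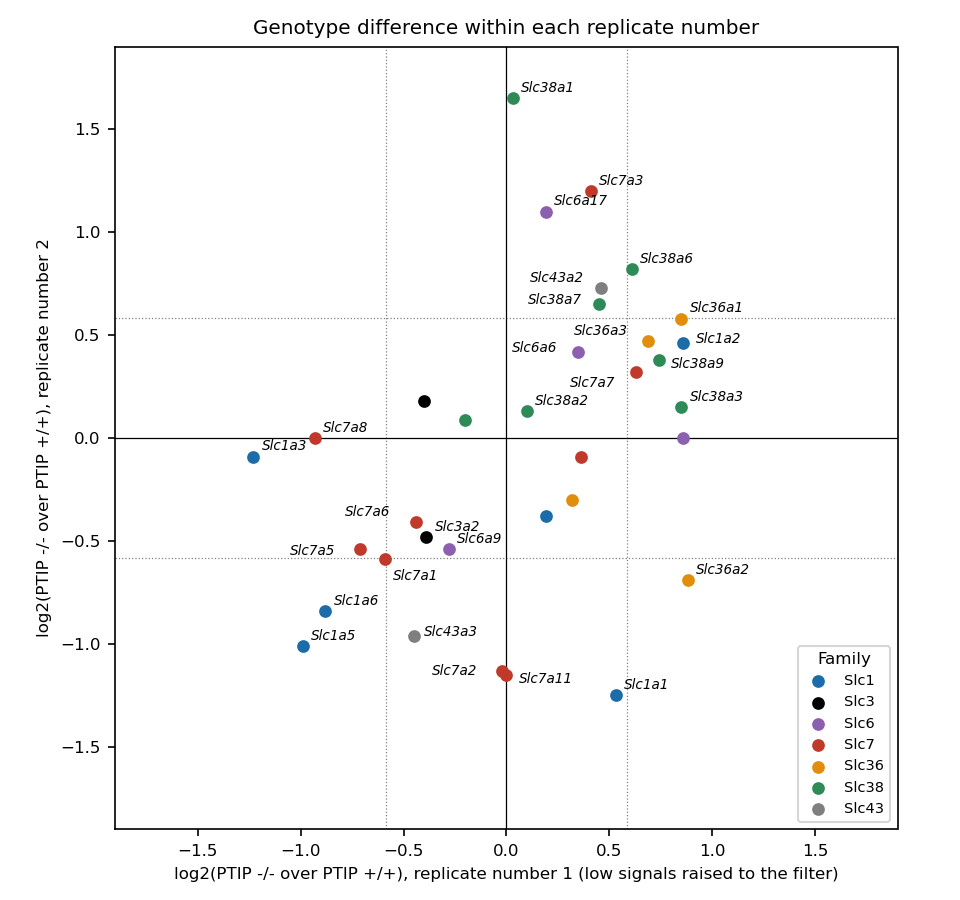
Log2 ratio of PTIP -/- over PTIP +/+ in replicate number 1 (x axis) and number 2 (y axis) for the 34 tested transporter genes, coloured by family, signals below the filter raised to it; dotted lines mark 1.5-fold. Slc1a5 (-0.99 and -1.01) and Slc1a6 (-0.88 and -0.84) lie lowest on the diagonal, Slc38a6 (0.61 and 0.82) is the one gene past both lines on the higher side, and Slc1a1 and Slc36a2 are higher in number 1 and lower in number 2.

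Promoter sequence was read for the members whose stretch next to the start held one of the motifs below. RefSeq promoter windows of assembly GRCm38.p6, 250 bases before to 50 after a start, were given for 23 of the 34 tested members. Slc1a5, Slc7a5 and 9 others have no window there and were not searched. The core of the C/EBP-ATF response element, TGATGNAAN on either strand, was in a window of 3 of the 23, Slc7a11, Slc1a4 and Slc7a7, or 13%, beside 4.50% of the 27025 genes with a window. Their fitted log2 changes were -0.98 ± 0.73, -0.10 ± 0.36 and 0.57 ± 0.54 (SE). Slc1a4 turned to 0.27 without PTIP -/- replicate 2 and Slc7a7 to -0.03 without PTIP +/+ replicate 1. Whether the members with the core share a direction thus cannot be read. The windows of Slc1a6, Slc3a2, Slc7a1 and Slc7a6, all lower within both numbers, did not hold these letters. The E-box palindrome TCACGTGA, read the same on both strands and searched after the values of Slc36 and Slc38 had been seen, was in the window of Slc36a1 alone of the 23, beside 1.12% of all genes. The stretches from 95 bases before to 5 bases after the start, on the gene's strand, were chr3:50443609-50443708 (minus strand) for Slc7a11, chr11:20332709-20332808 (minus) for Slc1a4 and chr11:55204245-55204344 (plus) for Slc36a1, with the motif letters in capitals. Slc7a11 is printed because its 2 matches stand close together, on opposite strands, with their first bases 66 and 48 bases before the start. A match is a description of letters and was not tested for binding.
Slc7a11: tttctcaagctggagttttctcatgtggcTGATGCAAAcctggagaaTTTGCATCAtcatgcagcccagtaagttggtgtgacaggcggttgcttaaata
Slc1a4: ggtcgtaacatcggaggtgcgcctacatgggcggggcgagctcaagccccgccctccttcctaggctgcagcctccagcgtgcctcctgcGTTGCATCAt
Slc36a1: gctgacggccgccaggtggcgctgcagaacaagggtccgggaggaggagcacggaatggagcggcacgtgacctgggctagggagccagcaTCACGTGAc

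Among the exchangers of small neutral amino acids, Slc1a5 (ASCT2), which brings glutamine into dividing cells, showed the difference most alike in both numbers. The PTIP -/- signals, replicate 1 first as in every pair below, were 345.9 and 250.5, and the PTIP +/+ signals 687.9 and 502.8. Both PTIP -/- arrays lay below both PTIP +/+ arrays, at mean log2 signals of 8.20 ± 0.33 and 9.20 ± 0.32 (SD, n = 2 each). The difference was 1.99-fold in number 1 and 2.01-fold in number 2, a log2 change of -1.0 ± 0.33 (SE; limma, unadjusted p = 0.0364, adjusted p = 0.999). A second probe set of Slc1a5 lay below the filter on average. Slc1a4 (ASCT1), which exchanges alanine, serine and cysteine and whose promoter holds the core shown above, read 1211.3 and 725.3 against 1062.7 and 944.6. Its groups overlapped, and it was 1.14-fold higher in number 1 and 1.30-fold lower in number 2. Other probe sets of Slc1a4 gave log2 changes of 0.02 and -0.21.

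The glutamate carriers of Slc1 were dim or set mainly by the replicate number. Slc1a6 (EAAT4), best known from cerebellar Purkinje cells, read 223.3 and 1063.9 in PTIP -/- against 410.9 and 1904.6 in PTIP +/+. Within the numbers it was lower by 1.84-fold and 1.79-fold, while its signal on the arrays numbered 2 was several times that on the arrays numbered 1 in both genotypes. The fit, which counts that difference as error, gave -0.86 ± 1.12 (SE), and without PTIP -/- replicate 1 or PTIP +/+ replicate 2 the sign turned, to 0.27 and 0.25. Slc1a3 (GLAST), a glial glutamate carrier, had the largest fitted change of the family, at 16.8 and 120.2 against 112.0 and 127.9. One PTIP -/- array carried that difference, the log2 change being -1.41 ± 1.01 (SE), and 0.01 without PTIP -/- replicate 1. That array was below the filter, and with its signal raised the change was -0.66. A second probe set of Slc1a3 above the filter on average read 33.5 and 70.9 against 71.3 and 99.6, lower in both numbers (-0.79) with a gap of less than 1 signal unit between the groups. Slc1a2 (GLT-1), the main glutamate carrier of astrocytes, read 86.5 and 65.8 against 38.1 and 31.5. Both PTIP +/+ arrays were below the filter, so it was at least 1.58-fold higher in PTIP -/- and passed the filter only through the PTIP -/- arrays. Its p carries no weight for that reason, although Slc1a2 is among the members counted above at an unadjusted p under 0.05 and with no overlap. The other probe sets of Slc1a2 were below the filter on average. Slc1a1, a glutamate and cysteine carrier, read 76.8 and 58.6 against 53.2 and 139.8, higher in number 1 and lower in number 2. Slc1a7 did not reach the filter.

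Slc3a2, the CD98 heavy chain that carries the Slc7 light chains to the cell surface, had signals of 5862.0 and 6080.2 in PTIP -/- against 7662.9 and 8476.1 in PTIP +/+. Its groups did not overlap, with mean log2 signals of 12.54 ± 0.04 and 12.98 ± 0.10 (SD, n = 2 each). Within the numbers the difference was 1.31-fold and 1.39-fold, a log2 change of -0.43 ± 0.25 (SE; limma, adjusted p = 0.999). The other heavy chain, Slc3a1 (rBAT), a cystine and cationic amino acid subunit of kidney and gut, was near the filter at 62.8 and 54.2 against 82.8 and 32.6, and its fitted change of 0.17 turned below 0 with quantile normalization (-0.04) and with arrays centred (-0.01).

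Of the 5 tested light chains that pair with Slc3a2, 4 had a fitted change below 0. Slc7a5 (LAT1), which exchanges leucine and other large neutral amino acids for glutamine, read 2519.9 and 1788.4 in PTIP -/- against 4114.8 and 2592.6 in PTIP +/+. Its groups did not overlap, although PTIP -/- replicate 1 and PTIP +/+ replicate 2 were close. PTIP -/- was lower by 1.63-fold in number 1 and by 1.45-fold in number 2 (log2 -0.62 ± 0.37, SE). Slc7a6 (y+LAT2), an exchanger of cationic for neutral amino acids, read 1285.0 and 940.3 against 1743.2 and 1247.3, 1.36-fold and 1.33-fold lower within the numbers, with overlapping groups and -0.11 on a second probe set.

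Slc7a11 (xCT), which imports cystine in exchange for glutamate and whose promoter holds both matches printed above, was dim at 26.1 and 61.3 in PTIP -/- against 45.7 and 136.2 in PTIP +/+. Both arrays numbered 1 were below the filter, so a fold can be read in number 2 alone, 2.22-fold lower, and the groups overlapped (log2 -0.98 ± 0.73, SE). Slc7a8 (LAT2), another neutral amino acid exchanger, read 135.3 and 29.1 against 257.8 and 37.9, 1.91-fold lower in number 1 and below the filter in both genotypes in number 2. Slc7a7 (y+LAT1), the light chain on the other side, read 73.9 and 120.5 against 42.2 and 96.2, at least 1.55-fold higher in number 1 and higher by 0.32 on the log2 scale in number 2. A second probe set gave 0.63, beside 0.57 ± 0.54 (SE) on the first.

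The cationic carriers of Slc7 work without a heavy chain. Slc7a1 (CAT1), the widespread importer of arginine and lysine, had signals of 2998.1 and 2261.5 in PTIP -/- against 4520.7 and 3393.0 in PTIP +/+. Both PTIP -/- arrays lay below both PTIP +/+ arrays, and the difference was 1.51-fold in number 1 and 1.5-fold in number 2 (log2 -0.59 ± 0.31, SE). Other probe sets gave -0.48 and, on a dim one, -0.18, so the size depended on the probe set. Slc7a2 (CAT2), an arginine carrier of liver and activated macrophages, read 73.0 and 211.4 against 74.0 and 463.4, level in number 1 and 2.19-fold lower in number 2. Slc7a3 (CAT3) read 114.1 and 156.4 against 86.1 and 68.0, 1.33-fold and 2.30-fold higher in PTIP -/- with no overlap (log2 0.80 ± 0.31, SE). Slc7a4, a relative of the cationic carriers, differed by 0.14 ± 0.29 (SE), with 0.63 on a dim probe set, and overlapped. Slc7a9, Slc7a10, Slc7a12, Slc7a13, Slc7a14 and Slc7a15 were below the filter.

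**Figure D3:**
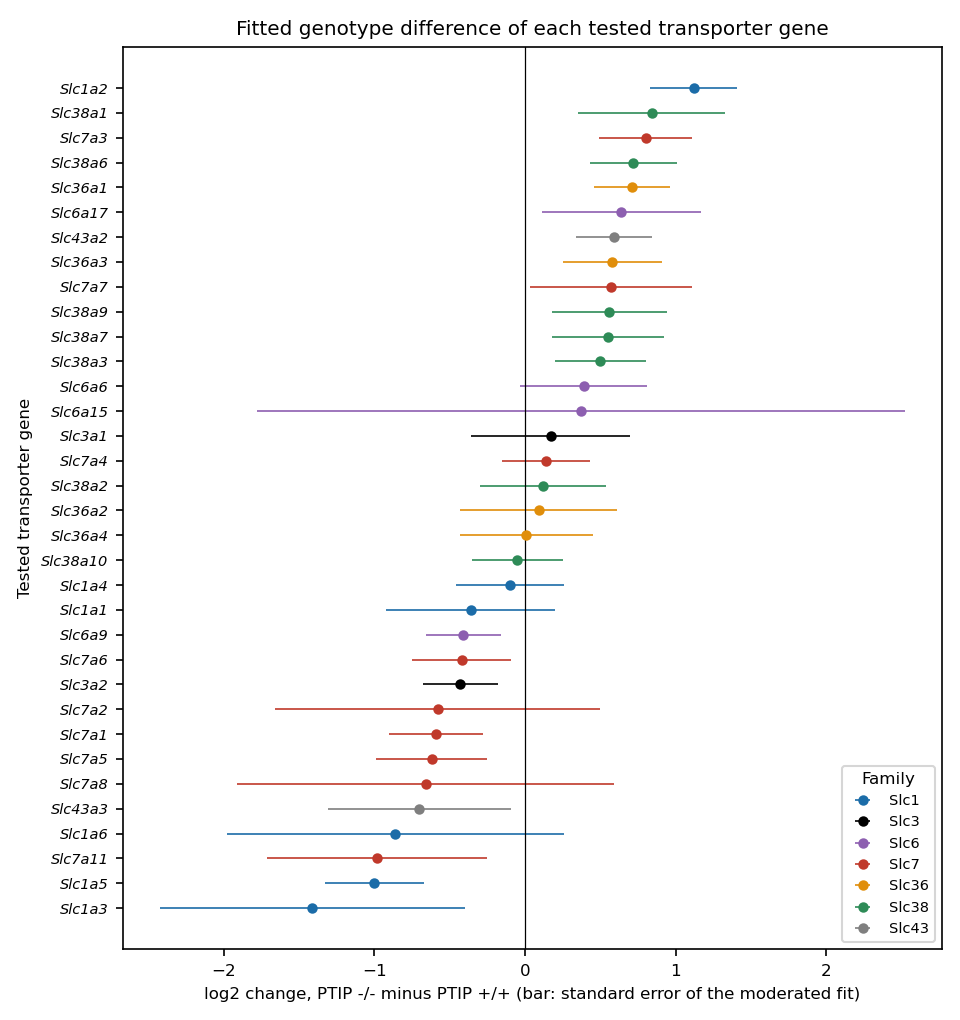
Fitted log2 change, PTIP -/- minus PTIP +/+ (x axis), with its standard error as a bar, for the 34 tested transporter genes in order (rows), coloured by family. Slc36 and Slc38 genes, of which Slc38a1 is highest at 0.84, fill much of the upper part, and Slc1 and Slc7 genes much of the lower part, with Slc1a5 at -1.0 and Slc7a5 at -0.62, while the point of Slc1a2 at the top rests on PTIP +/+ signals below the filter and is 0.66 with those raised to it, and the widest bars belong to genes that differ between the replicate numbers, such as Slc6a15.

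The proton-coupled Slc36 carriers lay on the higher side. Slc36a1 (PAT1), which exports small amino acids from lysosomes and whose promoter holds the E-box palindrome printed above, had signals of 512.7 and 458.1 in PTIP -/- against 283.7 and 307.3 in PTIP +/+. Its groups lay well apart, at mean log2 signals of 8.92 ± 0.11 and 8.21 ± 0.08 (SD, n = 2 each). It was 1.81-fold higher in number 1 and 1.49-fold higher in number 2, a log2 change of 0.71 ± 0.25 (SE; limma, unadjusted p = 0.0437, adjusted p = 0.999). Slc36a3, a relative best known from testis, read 270.3 and 184.0 against 167.8 and 133.0, again with no overlap, 1.61-fold and 1.38-fold higher. Slc36a2 (PAT2) read 161.9 and 65.0 against 87.9 and 105.2, higher in number 1 and lower in number 2, as was Slc36a4 (PAT4) at 716.4 and 935.1 against 574.8 and 1148.4. The fitted changes of both, 0.09 and 0.01, turned below 0 with quantile normalization (-0.03 and -0.02) and with centred arrays (-0.08 and -0.17).

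In the sodium-coupled Slc38 family the signals of the glutamine carriers were on the higher side or level. Slc38a1 (SNAT1), an importer of glutamine, read 1609.4 and 2217.5 in PTIP -/- against 1576.1 and 705.0 in PTIP +/+. The groups did not overlap by a narrow margin, and the difference lay in number 2, at 3.15-fold higher, with 1.02-fold in number 1 (log2 0.84 ± 0.49, SE). A second probe set of Slc38a1 gave 0.80, with 0.45 in number 1 and 1.15 in number 2. Slc38a2 (SNAT2), an importer that is induced when amino acids are withdrawn, read 5078.0 and 8309.3 against 4724.5 and 7580.4. It differed between the genotypes by 1.07-fold and 1.10-fold within the numbers, less than between the numbers, and its fitted change of 0.12 ± 0.42 (SE) turned to -0.06 with centred arrays. Slc38a3 (SNAT3), a glutamine carrier of liver and kidney, read 105.8 and 83.8 against 58.5 and 75.5, 1.81-fold and 1.11-fold higher.

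The other Slc38 members include carriers of the lysosome and orphans. Slc38a6, a little-studied member, read 348.8 and 298.2 in PTIP -/- against 227.9 and 168.5 in PTIP +/+. It was 1.53-fold higher in number 1 and 1.77-fold higher in number 2 with no overlap (log2 0.72 ± 0.29, SE), and a second probe set was below the filter. Slc38a7 (SNAT7), which exports glutamine and asparagine from lysosomes, read 899.5 and 653.3 against 656.6 and 417.6, 1.37-fold and 1.56-fold higher. Slc38a9, the lysosomal arginine sensor of mTORC1, read 228.5 and 302.8 against 136.9 and 232.6, 1.67-fold and 1.30-fold higher (log2 0.56 ± 0.38, SE). The groups of both overlapped, and 4 other probe sets of Slc38a9 above the filter gave 0.28 to 0.57. Slc38a10 read 2799.7 and 3887.6 against 3211.8 and 3640.8, and its -0.05 stood beside 0.11 to 0.65 on 5 other probe sets, so no direction can be read for it. Slc38a5 was below the filter.

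The Slc6 carriers differed among themselves. Slc6a6, the taurine importer, read 8742.7 and 5522.6 in PTIP -/- against 6842.3 and 4137.3 in PTIP +/+, 1.28-fold and 1.33-fold higher within the numbers, with overlapping groups. Its other probe sets gave 0.57, 0.70 and 0.26. Slc6a9 (GlyT1), a glycine importer, read 569.2 and 531.3 against 690.8 and 774.5, 1.21-fold and 1.46-fold lower with no overlap (log2 -0.41 ± 0.25, SE), and a second probe set gave 0.05. Slc6a17, a vesicular carrier of neurons, had the largest fitted change of the family at 375.3 and 284.2 against 329.8 and 132.6, but -0.01 without PTIP +/+ replicate 2. Its 2 other probe sets above the filter gave -0.10 and 1.53, so its direction depended on the probe set. Slc6a15, a carrier of branched-chain amino acids and proline, read 776.0 and 27.1 against 426.4 and 29.6, so that it was 1.82-fold higher in number 1 and below the filter in number 2. Slc6a14, Slc6a20a and Slc6a20b did not reach the filter.

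In Slc43, Slc43a2 (LAT4), which lets leucine and other large neutral amino acids pass without exchange, had signals of 152.0 and 167.6 in PTIP -/- against 110.3 and 101.3 in PTIP +/+. The groups did not overlap, and it was 1.38-fold and 1.65-fold higher (log2 0.59 ± 0.25, SE). Slc43a3, which is known to carry purine nucleobases and not amino acids, read 299.2 and 115.7 against 407.4 and 225.2, 1.36-fold and 1.95-fold lower with overlapping groups (log2 -0.70 ± 0.61, SE). The change was -0.02 without PTIP -/- replicate 2, -0.28 without PTIP +/+ replicate 1, -1.39 without PTIP -/- replicate 1 and -1.13 without PTIP +/+ replicate 2. Slc43a1 was below the filter.

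Across the 34 members, the log2 differences of number 1 and number 2 correlated with Pearson's r of 0.40, beside 0.24 over all genes tested. These are correlations across genes, which are not independent replicates, and they carry no test. With signals raised to the filter, those of 4 members differed at least 2-fold between the numbers in both genotypes. Slc1a6 and Slc7a2 were higher on the arrays numbered 2 (5.88%, beside 4.13% of all genes), and Slc6a15 and Slc7a8 on those numbered 1 (5.88%, beside 2.92%). The measured signals of Slc7a11, below the filter on both arrays numbered 1, were also over 2-fold higher on those numbered 2. For these 4 genes the fitted standard errors, 1.08 to 2.15, were larger than the fitted changes.

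Related genes were read from 3 lists. Among 15 tested carriers of amino acids and peptides outside these families, 6 were lower (40%, beside 43.9% of all genes) and 9 higher, with a median log2 change of 0.10, and 0 passed the test. Leaving out PTIP -/- replicate 1 gave a median of -0.09, leaving out PTIP -/- replicate 2 gave 0.30, and centred arrays gave -0.07, so its sign is not settled. The 3 largest changes belonged to Slc66a1, a lysosomal exporter of cationic amino acids, at 0.66 ± 0.42 (SE), Ctns, the lysosomal cystine exporter, at 0.59 ± 0.40, and Slc15a2, a peptide importer, at 0.58 ± 0.32. At least 1.5-fold lower or higher within both numbers were 0 of these 15, beside 1.95% and 2.78% of all genes. At such shares 15 genes are too few for the 0 to be read.

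In the machinery that reports amino acids to mTORC1, 9 of 27 tested genes were lower (33.3%, beside 43.9% of all genes) and 18 higher. The median was 0.18, with 0.04 in number 1 and 0.25 in number 2. It was -0.0 with centred arrays and 0.03 without PTIP +/+ replicate 2, so no shift of this list can be read. Rragd, a Rag GTPase that brings mTORC1 to the lysosome, read 157.9 and 177.2 in PTIP -/- against 114.9 and 55.3 in PTIP +/+ (log2 1.07 ± 0.44, SE). Sesn3, a sestrin, read 515.7 and 1297.9 against 428.9 and 404.1, most of its difference lying in number 2, and Castor2, a relative of the arginine sensor Castor1, 312.4 and 433.5 against 204.9 and 302.1. On the uncentred signals, both PTIP -/- arrays were above both PTIP +/+ arrays for 9 of the 27, or 33.3%, beside 16.6% of all genes. Such shares depend on the scaling, and 0 of the 27 passed the test. At least 1.5-fold lower or higher within both numbers were 0 of the 27, beside 1.95% and 2.78% of all genes, again too few genes for the 0 to be read.

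The ATF4 axis, a list drawn up with earlier results of these data known, had 14 of 17 tested genes lower (82.4%, beside 43.9% of all genes) and a median of -0.49. At least 1.5-fold lower within both numbers were 6 of 17, 35.3%, beside the 1.95% of all genes. Vldlr, a lipoprotein receptor, had the largest change, at 121.3 and 218.0 against 769.0 and 1556.7, followed by Cebpb, a C/EBP factor (log2 -1.12 ± 0.63, SE, with overlapping groups), and Psat1, a serine synthesis enzyme (-1.05 ± 0.29, SE). None passed over all genes (limma, adjusted p = 0.999 for each). Atf4 itself read 7701.8 and 6664.5 against 8253.7 and 9582.0, with no overlap. Of the transporter genes, grouped after their values were seen, those in Slc1, Slc3 and Slc7 had a median of -0.43 over 17 genes, and those in Slc36 and Slc38 of 0.55 over 11 genes. Leaving out PTIP +/+ replicate 2 moved the first to -0.19, PTIP -/- replicate 2 to -0.20 and PTIP +/+ replicate 1 to -0.29, and the second was 0.33 without PTIP -/- replicate 1 and 0.32 without PTIP +/+ replicate 1. No list test was made.

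**Figure D4:**
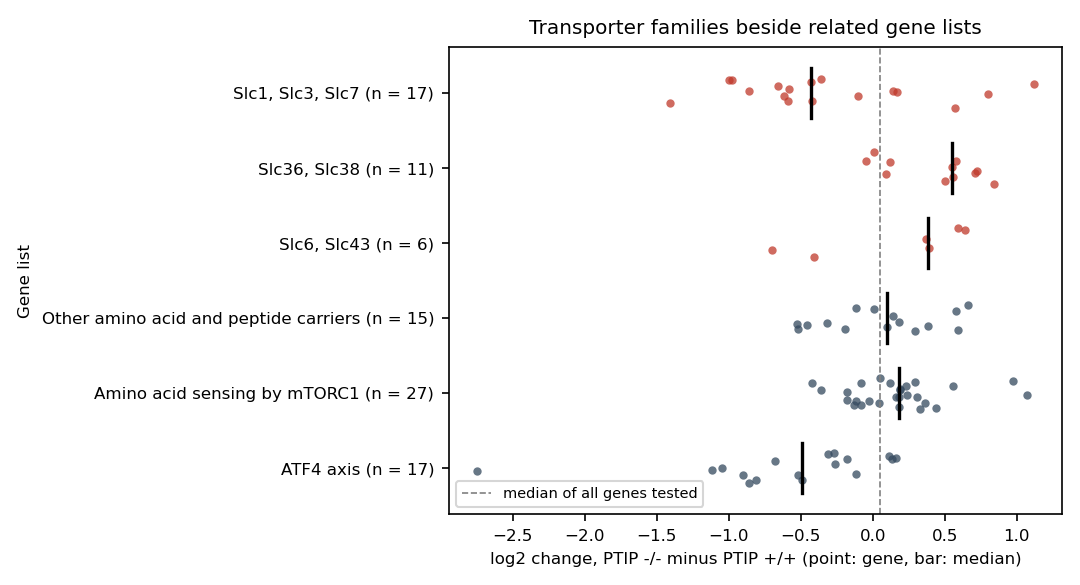
Fitted log2 change, PTIP -/- minus PTIP +/+ (x axis), of the tested genes of the transporter families, grouped in 3 (red points), and of 3 related lists (dark points); vertical bars are medians and the dashed line is the median of all genes tested, 0.05. Slc1, Slc3 and Slc7 genes (median -0.43) and the ATF4 axis (median -0.49) lie mostly below 0, Slc36 and Slc38 genes (median 0.55) mostly above, and the other carriers (0.10) and the mTORC1 sensing genes (0.18) near the median of all genes.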

How the data were processed

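RNA of 4 samples, 2 per genotype, was hybridised to Affymetrix mouse arrays. The authors deposited 1 intensity per probe set and array, 45101 probe sets in all. RMA is named in the submitters' processing notes without a version, but the values are linear and have a mean of 500 on every array after trimming 2% at each end. Intensities were taken to log2, 1 zero being replaced by 0.1, and 64 control probe sets removed. A single gene symbol was carried by 34945 probe sets, 932 several and 9160 none. Symbols were updated by gene number for 34741 through the RefSeq table of GRCm38.p6. Each gene was read from its probe set with the highest mean log2 signal, and 12509 of 18193 genes reached the filter. Genotypes were compared in limma 3.58.1 under R 4.3.3 (lmFit, eBayes, no covariate, 2 residual degrees of freedom), with Benjamini-Hochberg adjustment over all genes tested, and an exact permutation test of 1 gene could not go below a two-sided p of 0.333. The fit was run on simulated data with independent arrays, an equal spread for all genes and changes larger than those of the members. That run does not measure power or error for these arrays. A fold is written "at least" where the dimmer side of the comparison was under the filter, which then stands in for it. Members and lists were chosen with earlier results of these data known. The rule for naming took textbook members, members past 1.5-fold within both numbers or at an unadjusted p under 0.05, the largest change of each family and the 3 largest of each other list; the other tested members are described for completeness, and Atf4 and the family groupings were chosen after values were seen. Alternatives were quantile normalization, centred arrays, other filters, fold thresholds and probe-set rules, a replicate block, a variance trend and leaving out each array.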

Additional observations from a re-analysis of the deposited data

How the results depend on the processing

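No transporter gene and no other gene was called in any of 12 refits (limma, adjusted p under 0.05), and the smallest adjusted p of any named gene was 0.601. The 3 transporter genes at an unadjusted p under 0.05 became 1 without the level filter (of 46, beside 3.74% of all genes). They also became 1 with probe sets averaged per gene (of 27, beside 2.55%) and with a variance trend (of 34, beside 2.07%). With the replicate number as a block they were 9, beside 7.85% of all genes: Slc1a2, Slc1a5, Slc1a6, Slc7a1, Slc7a5, Slc7a11, Slc36a1, Slc38a6 and Slc43a3. Of these, Slc1a2 passed the filter only through the PTIP -/- arrays. The mean signal of Slc7a11 was below the filter in PTIP -/- (log2 5.32), so it passed through PTIP +/+ (log2 6.30). The p of these genes carries no weight for that reason. Deviations from the genotype means correlated at 0.686 between arrays of the same number across all genes and 0.777 across members, but there are only 2 pairs and the labels do not say what a number marks. The count of 3 members at least 1.5-fold lower within both numbers was 6 with centred arrays (beside 4.02% of all genes), 1 of 27 with probe sets averaged (1.8%), 7 at the lowest fold threshold tried (5.55%) and 0 at 2-fold (0.719%). The count of 1 higher member was 0 with quantile normalization (1.86%), centred arrays (1.23%), probe sets averaged (3.22%) or a 2-fold threshold (0.456%), 2 with measured signals (3.44%) and 10 at the lowest fold threshold (9.51%). Slc1a2, which passed the filter only through the PTIP -/- arrays, is in both the 2 and the 10. With the filter at the 60th percentile 4 of 22 members had both PTIP -/- arrays above, beside 15.2% of all genes.

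Of 493 single-gene values over 43 genes, 460 kept their sign, and 28 genes kept it in every setting run. Many of the 493 could not change. Omitting the level filter, a stricter filter, a replicate block and a variance trend all leave the log2 change of a gene as it was. So does averaging for a gene with a single probe set, and raising low signals for a gene with no array below the filter. The 460 therefore overstates how firmly the signs hold. With centred arrays Slc3a1 was -0.01, Slc7a4 -0.04, Slc36a2 -0.08, Slc36a4 -0.17 and Slc38a2 -0.06. With quantile normalization Slc3a1 was -0.04, Slc36a2 -0.03 and Slc36a4 -0.02. Slc3a1 was -0.11 with low signals raised, and Slc38a10 was 0.35 with the mean of probe sets. With 1 array left out, the lone array being assumed to vary like the others, the fitted change ran from -1.06 to 0.33 for Slc1a1, -2.83 to 0.01 for Slc1a3, -0.47 to 0.27 for Slc1a4, -1.99 to 0.27 for Slc1a6, -0.51 to 0.84 for Slc3a1, -2.05 to 2.79 for Slc6a15, -0.01 to 1.30 for Slc6a17, -1.9 to 0.75 for Slc7a2, -0.11 to 0.38 for Slc7a4, -0.03 to 1.16 for Slc7a7, -2.04 to 0.73 for Slc7a8, -0.57 to 0.75 for Slc36a2, -0.49 to 0.51 for Slc36a4, -0.24 to 0.47 for Slc38a2 and -0.29 to 0.19 for Slc38a10. The cause of these shifts was not tested. Signals near the filter limit Slc1a2, Slc1a3, Slc3a1, Slc6a15, Slc7a7, Slc7a8 and Slc7a11, each with an array below it.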
